A study of Mus musculus with 35 samples.

Results

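A set of 10 periportal genes of the liver lobule was followed across the tumors, non-tumorous livers and control livers of 3 mouse liver cancer models: Cps1, Otc, Ass1, Asl, Arg1, Hal, Sds, Gls2, Cyp2f2 and Pck1. They were chosen by name, and each was to be read from the brightest probe set annotated to that gene alone. Of the 10 genes, 7 had such a probe set, out of 18820 genes that did, and each of the 7 had only 1. Ass1 was covered by 2 probe sets that are annotated to Gm5424 as well, so it is given as the shared feature Ass1/Gm5424 and is not counted among the 7. Sds and Gls2 were not analysed here.

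The urea cycle turns the ammonia set free by amino acid breakdown into urea, with its first steps in the mitochondria of hepatocytes and the later ones in their cytosol. In the healthy lobule this pathway, histidine and serine breakdown and gluconeogenesis are strongest in the hepatocytes around the portal vein, whereas the hepatocytes around the central vein take up what ammonia is left and fix it as glutamine. Wnt signalling from the central vein is known to favour the central set and to restrain the portal one.

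Total RNA of 35 liver samples was measured on microarrays, 1 array each, and the values are log2 intensities after RMA normalization. The chemically induced tumors came from mice injected with diethylnitrosamine (DEN) at 10 mg per kg body weight on day 15 and examined at 9 months, with 5 tumors, 5 non-tumorous livers (NTL) and 5 livers of untreated mice. The lymphotoxin (LT) tumors came from tg1223 mice, whose livers make lymphotoxin alpha and beta and which had 12 months to develop tumors, with 3 tumors and 5 NTL. The MYC tumors came from TRE-MYC mice carrying LAP-tTA, a liver-specific promoter driving the activator, that ate doxycycline chow at 200 mg/kg until week 8 to hold the transgene off, with 5 tumors and 3 NTL. The LT and MYC models share 4 control livers from transgene-negative mice, and the labels call both control sets matched for sex and age. No age at collection is labelled for the MYC mice. The arrays come from bulk tissue with no position in the lobule, so the word periportal rests here on the known place of these genes, and fewer cells of a type cannot be told apart from less RNA per cell.

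Of 11 hepatocyte markers, 3 rose and 1 fell in DEN tumors, 1 fell in LT tumors and 4 fell in MYC tumors. The mean of these markers lay between 12.75 and 13.12 in the 13 tumor arrays and between 12.9 and 13.06 in the 13 NTL arrays. Albumin (Alb) did not pass the test in any tumor group, with log2 changes between -0.04 and 0.04 (-0.04, -0.13 and -0.12 in DEN, LT and MYC tumors after each array was centred on its median, which turns the sign in DEN tumors), while all 5 markers of dividing cells rose in the tumors of each model. Mki67, a protein of cycling cells, rose by 2.11 ± 0.36, 1.87 ± 0.41 and 3.04 ± 0.41 log2 units (SE) in DEN, LT and MYC tumors, and Myc rose by 1.94 ± 0.61 in MYC tumors (limma adjusted p = 0.0217). The mouse identifiers of DEN tumors 1 and 4, of DEN tumors 3 and 5, and of LT tumors 1 and 2 share a stem, and WT opens each identifier among the MYC NTL, so whether these livers carried the MYC transgenes is unsettled. Xist, which coats the inactive X chromosome, was high in 9 arrays: all 3 LT tumors, 4 of 5 LT NTL and 1 array in each control group. No DEN or MYC tumor or NTL array was high. Judged by Xist, the LT arrays and their controls thus differed in sex make-up, despite the stated matching. Comparisons of LT arrays with controls are therefore not free of a sex difference.

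The members fell in tumors of all 3 models, none rose, and the size of the fall differed widely from tumor to tumor. Against NTL, 7 of 7 members were lower in MYC tumors, 5 of 7 in DEN tumors (Otc, Asl, Arg1, Cyp2f2 and Pck1) and 3 of 7 in LT tumors (Otc, Asl and Cyp2f2), at an adjusted p under 0.05 in a limma fit over all arrays. Of all 18821 features tested, 10.3% were lower and 11.5% higher in MYC tumors, 16.7% lower and 15.6% higher in DEN tumors, and 9.73% lower and 10.7% higher in LT tumors. Of the features called, 52.8%, 48.2% and 52.3% were thus higher in MYC, DEN and LT tumors, and 33.7%, 32.4% and 23.5% when each array was centred on its median. The median log2 change of the 7 members was -0.96 in DEN tumors, -0.84 in LT tumors and -1.31 in MYC tumors, beside -0.04, -0.03 and -0.03 over all features. The LT count rested on single tumors: it was 0 without LT tumor 1, 1 without LT tumor 2 and 6 without LT tumor 3. Tumors that share an identifier stem may not be independent. With such arrays averaged before the limma fit, Arg1 and Pck1 did not pass in DEN tumors (adjusted p = 0.0891 and 0.0854). Otc and Cyp2f2 then did not pass in LT tumors (adjusted p = 0.176 and 0.116).

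**Figure D1:**
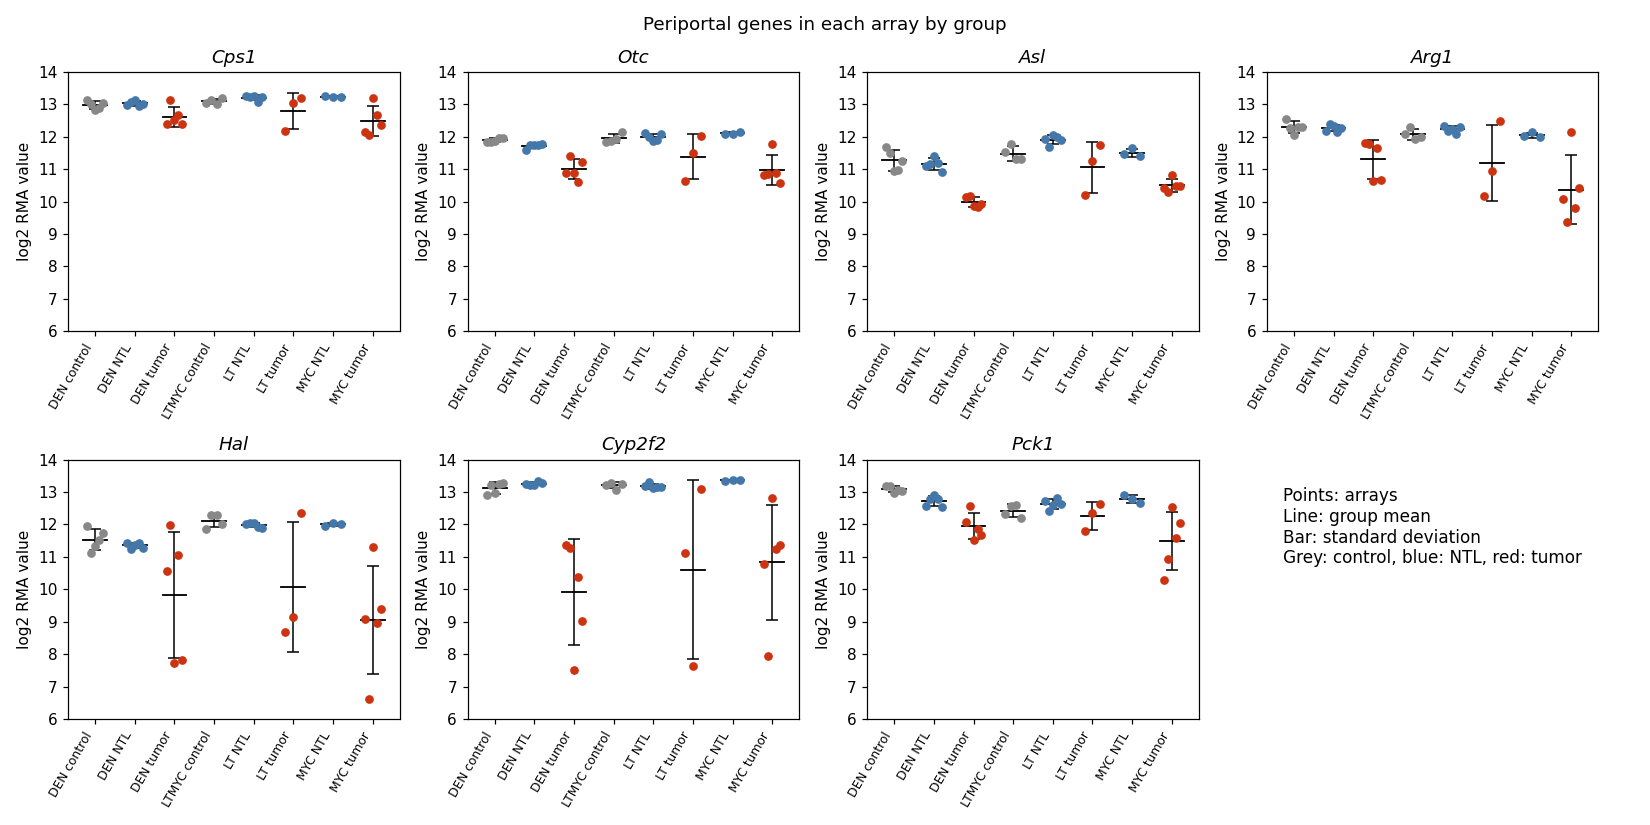
Log2 RMA value (vertical axis) of the 7 measured genes in each of the 35 arrays, by group; points are arrays, lines group means and bars the standard deviation. NTL and control arrays sit close together, while tumor arrays spread widely for Hal (6.61 to 12.36) and Cyp2f2 (7.51 to 13.08) and narrowly for Asl in DEN tumors (9.82 to 10.17).

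Promoter windows from RefSeq (GRCm38.p6, 250 bases before to 50 bases after the start of the gene, except for Otc) were held for 5 of the 10 genes. Those of Hal and Cyp2f2, the pair with the widest spread between tumors, and of Pck1, the gluconeogenic member, are printed 5′ to 3′ with matches to the searched motifs in capitals. They lie at chr10:93488518-93488817, chr7:27119705-27120004 and chr2:173152823-173153122, all on the plus strand.
Hal: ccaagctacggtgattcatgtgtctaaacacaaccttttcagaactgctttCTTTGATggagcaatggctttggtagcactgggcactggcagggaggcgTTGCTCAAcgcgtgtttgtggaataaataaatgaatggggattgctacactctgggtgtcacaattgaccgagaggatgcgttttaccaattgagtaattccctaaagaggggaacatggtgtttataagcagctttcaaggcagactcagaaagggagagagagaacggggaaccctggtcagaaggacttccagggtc
Cyp2f2: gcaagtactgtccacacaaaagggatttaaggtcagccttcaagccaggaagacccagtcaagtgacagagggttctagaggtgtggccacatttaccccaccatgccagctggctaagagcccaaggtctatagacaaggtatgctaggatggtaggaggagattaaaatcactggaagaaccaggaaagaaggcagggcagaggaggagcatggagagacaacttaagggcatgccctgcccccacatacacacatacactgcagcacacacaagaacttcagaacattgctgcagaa
Pck1: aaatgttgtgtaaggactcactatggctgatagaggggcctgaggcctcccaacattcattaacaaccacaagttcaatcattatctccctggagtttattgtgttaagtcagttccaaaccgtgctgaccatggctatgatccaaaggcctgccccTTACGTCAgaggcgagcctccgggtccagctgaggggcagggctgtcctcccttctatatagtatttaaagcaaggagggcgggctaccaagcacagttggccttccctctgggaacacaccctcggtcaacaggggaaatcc
The letters searched were TATAAA on the strand of the gene and, on both strands, TTGCNNAA (a C/EBP-type site), CAAAGTCCA (HNF4), TGTTTAC (FOXA), CTTTGAT (TCF/LEF), CACGTG (an E-box), TGACG (part of a cyclic AMP response element) and TTACGTCA, which contains CGTCA, the reverse complement of TGACG. The motifs were picked with these windows in view. The Hal window held CTTTGAT at base 52 and TTGCTCAA at base 101, counted from its 5′ end, and the Pck1 window held TTACGTCA at base 158. Of 32851 windows of the same length, 3.73% held CTTTGAT, 10.8% TTGCNNAA, 20.8% TGACG and 0.499% TTACGTCA. The Cyp2f2 and Otc windows held none of these letters, and the Ass1 window held CACGTG, which 7.15% of windows hold. The Otc window, chrX:10252055-10252354, is placed otherwise, since the gene is annotated to start at base 10252230. A match describes letters only, and binding was not measured.

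Cps1, which makes carbamoyl phosphate from ammonia and is the entry enzyme of the cycle, fell in MYC tumors and changed least of the 7 members there. Its level was 12.14, 12.05, 13.2, 12.66 and 12.36 in MYC tumors 1 to 5 and 13.27, 13.24 and 13.21 in MYC NTL. MYC tumor 3 sat just below the NTL arrays and the other 4 clearly lower. The change was -0.76 ± 0.19 (SE) log2 units, a fall of 1.69-fold (adjusted p = 0.00461). In DEN tumors Cps1 was 12.39, 13.14, 12.52, 12.66 and 12.38 beside 12.98, 13.08, 13.12, 12.96 and 13.01 in NTL, so DEN tumor 2 lay above every NTL array and the other 4 below. That change, -0.41 ± 0.17, missed the threshold (adjusted p = 0.0576) and passed it without DEN tumor 2 (-0.54, adjusted p = 0.0123). In LT tumors the values were 12.17, 13.04 and 13.19 beside 13.06 to 13.26 in NTL, and the change of -0.4 ± 0.19 did not pass (adjusted p = 0.144). It passed without LT tumor 3 (-0.6, adjusted p = 0.0331) and with centred arrays (-0.54, adjusted p = 0.0426).

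Otc, which joins carbamoyl phosphate to ornithine in the mitochondrion, fell in all 3 models. DEN tumors read 10.88, 11.4, 10.89, 10.6 and 11.23, all below the DEN NTL values of 11.59, 11.74, 11.75, 11.73 and 11.78, a change of -0.72 ± 0.18 (adjusted p = 0.00236). MYC tumors read 10.82, 10.85, 11.77, 10.87 and 10.58 against 12.09, 12.09 and 12.15 in NTL, a change of -1.13 ± 0.21 or 2.19-fold (adjusted p = 0.000202). Here too all tumors were below all NTL arrays, with MYC tumor 3 nearest to them. LT tumors read 10.64, 11.49 and 12.02 against 12.11, 12, 11.88, 11.89 and 12.08, so LT tumor 3 lay within the NTL range. The LT change of -0.61 ± 0.21 (adjusted p = 0.0347) was lost without LT tumor 1 (-0.24, adjusted p = 0.536), without LT tumor 2 (-0.66, adjusted p = 0.0559) and without any 1 of 3 NTL arrays (adjusted p 0.0519 to 0.0642).

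The shared feature Ass1/Gm5424, whose member Ass1 makes argininosuccinate, fell little. It changed by -0.5 ± 0.12 in DEN tumors (adjusted p = 0.00159) and by -0.39 ± 0.14 in MYC tumors (adjusted p = 0.0406). The MYC call was lost in 6 of the 8 fits that left out 1 array and with the replicate number as a block (-0.38, adjusted p = 0.0693). In LT tumors it read 12.49, 13.16 and 13.19 beside 13.11 to 13.16 in NTL, a change of -0.18 ± 0.14 that did not pass (adjusted p = 0.379). Signal of Ass1 and of Gm5424 cannot be told apart on these probe sets.

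Asl, which splits argininosuccinate into arginine and fumarate, fell evenly across DEN and MYC tumors and less so across LT tumors. DEN tumors read 10.13, 10.17, 9.86, 9.82 and 9.91 against 11.1, 11.16, 11.41, 11.19 and 10.92 in NTL. No tumor came near the NTL range, and the change was -1.18 ± 0.18, 2.26-fold (adjusted p = 6.07e-06). MYC tumors read 10.43, 10.29, 10.81, 10.48 and 10.49 against 11.47, 11.65 and 11.41, again with no overlap, and the change was -1.01 ± 0.21 (adjusted p = 0.000606). In both models each fit that left out 1 array kept the call. LT tumors read 10.2, 11.25 and 11.74 against 11.92, 11.68, 12.04, 11.99 and 11.9, a change of -0.84 ± 0.21 (adjusted p = 0.00371) that did not pass without LT tumor 1 (-0.41, adjusted p = 0.15).

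Arg1, which releases urea from arginine in the last step, fell in DEN and MYC tumors, with large gaps between tumors of 1 group. DEN tumors 3 and 5 read 10.64 and 10.67, whereas DEN tumors 1, 2 and 4 read 11.81, 11.78 and 11.64, nearer to the NTL values of 12.19, 12.39, 12.33, 12.15 and 12.26. The change was -0.96 ± 0.35 (adjusted p = 0.0342). It missed the threshold without DEN tumor 3 (-0.79, adjusted p = 0.107), without DEN tumor 5 (-0.8, adjusted p = 0.0997) and without any 1 of 4 NTL arrays (adjusted p 0.0511 to 0.0598). MYC tumors read 10.09, 9.38, 12.14, 9.81 and 10.41 against 12.03, 12.13 and 11.98 in NTL, so MYC tumor 3 lay above the NTL arrays and the other 4 well below. The MYC change of -1.68 ± 0.4, 3.2-fold, passed (adjusted p = 0.00295). In LT tumors the values of 10.17, 10.93 and 12.48 straddled the NTL range of 12.08 to 12.34, and the change of -1.03 ± 0.4 did not pass (adjusted p = 0.0676). It passed without LT tumor 3 (-1.68, adjusted p = 0.00188), with centred arrays (-1.17, adjusted p = 0.0286) and with dim genes filtered out (adjusted p = 0.0499).

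Hal, histidine ammonia lyase, which opens histidine breakdown by releasing ammonia, varied widely between tumors of 1 model. DEN tumors read 10.57, 11.97, 7.72, 11.06 and 7.83 while DEN NTL held between 11.25 and 11.44, with a standard deviation of 1.94 in the tumors and 0.09 in NTL (n = 5 each). DEN tumor 2 was above every NTL array, and DEN tumors 3 and 5 were the low pair. With that spread the mean change of -1.52 ± 0.68 did not pass (adjusted p = 0.0893), although it did without DEN tumor 2 (-2.05, adjusted p = 0.0204). MYC tumors read 9.08, 6.61, 11.29, 8.95 and 9.4, all below the NTL values of 11.96, 12.04 and 12.02. This was the largest fall of a member in that model, -2.94 ± 0.79 or 7.68-fold (adjusted p = 0.00734). LT tumors read 8.67, 9.16 and 12.36 beside 11.89 to 12.03 in NTL: 2 far below and 1 above, for a change of -1.92 ± 0.79 that did not pass (adjusted p = 0.0854). It passed without LT tumor 3 (-3.06, adjusted p = 0.00455) and with centred arrays (-2.05, adjusted p = 0.0449).

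Cyp2f2, a cytochrome P450 of foreign-compound metabolism and a standard periportal marker, fell in every model. DEN tumors read 11.37, 11.26, 7.51, 10.39 and 9.03 while DEN NTL held between 13.21 and 13.33. The change of -3.34 ± 0.72, 10.2-fold, was the largest of any member (adjusted p = 0.000555). MYC tumors read 10.77, 7.95, 12.82, 11.23 and 11.37 against 13.35, 13.37 and 13.38, a change of -2.53 ± 0.83 (adjusted p = 0.0278) that did not pass without MYC tumor 2 (-1.82, adjusted p = 0.0948) or without any 1 NTL array (adjusted p 0.0736 to 0.0777). LT tumors read 11.11, 7.63 and 13.08 against 13.11 to 13.3, a change of -2.57 ± 0.83 (adjusted p = 0.0267). All LT tumors lay below all LT NTL arrays, but LT tumor 3 by little, and the call was lost without LT tumor 1 (-2.83, adjusted p = 0.0648) or LT tumor 2 (-1.09, adjusted p = 0.385).

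Pck1, the cytosolic enzyme that commits oxaloacetate to gluconeogenesis, fell in DEN and MYC tumors. DEN tumors read 12.08, 12.56, 11.53, 11.86 and 11.69 against 12.58, 12.79, 12.9, 12.77 and 12.53 in NTL, a change of -0.77 ± 0.25 (adjusted p = 0.0173; 0.0562 without DEN tumor 3). MYC tumors read 10.3, 10.92, 12.54, 11.59 and 12.05 against 12.92, 12.8 and 12.66, a change of -1.31 ± 0.29 or 2.48-fold (adjusted p = 0.00123). MYC tumor 3 was close to NTL and MYC tumor 1 lowest. In LT tumors Pck1 read 11.8, 12.36 and 12.62 beside 12.42 to 12.83, and its change of -0.37 ± 0.29 did not pass (adjusted p = 0.397). Its mitochondrial isozyme Pck2, at 7.51, 7.52, 7.21, 7.27 and 7.1 in DEN tumors and 6.23 to 6.39 in DEN NTL, rose by 1.04 ± 0.12 (adjusted p = 3.7e-08). In LT and MYC tumors Pck2 changed by 0.1 ± 0.13 and 0.35 ± 0.13, which did not pass (adjusted p = 0.649 and 0.0598).

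**Figure D2:**
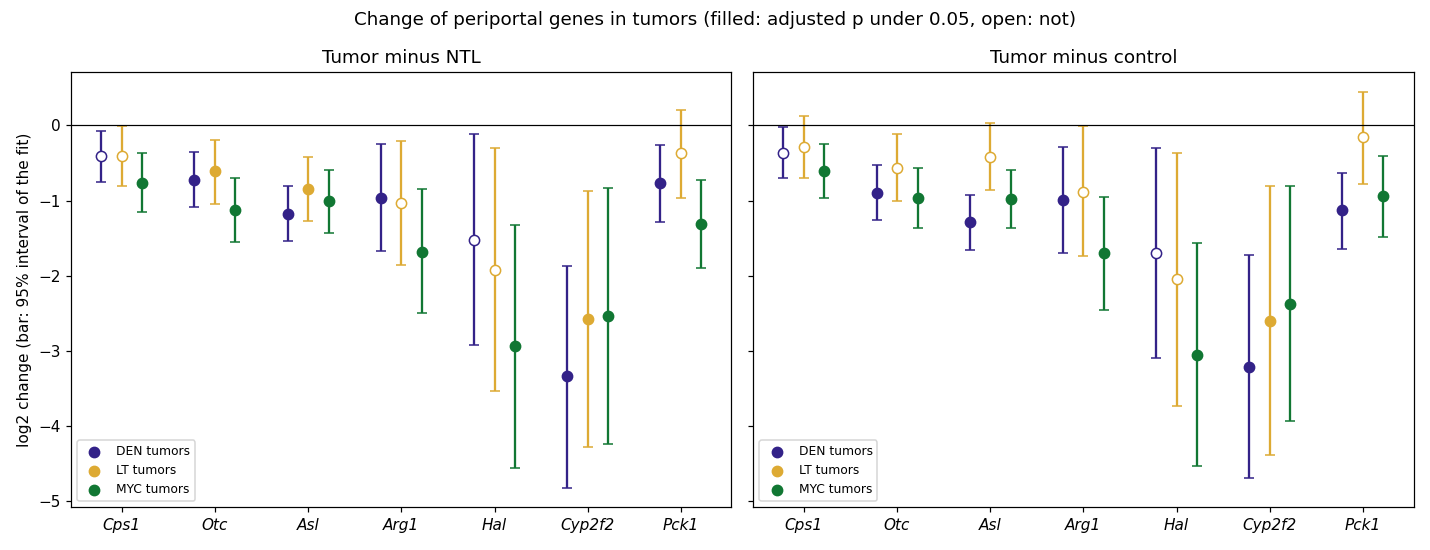
Log2 change of each gene (horizontal axis) in tumors against NTL (left) and against control livers (right) in the DEN, LT and MYC models; points are limma estimates, bars their 95% intervals, filled points have an adjusted p under 0.05. All estimates lie below 0, and the intervals are widest for Hal and Cyp2f2.

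Set against control livers instead of NTL, the members gave much the same picture in DEN and MYC tumors. Relative to untreated mice, 5 of 7 fell in DEN tumors and none rose, where 15.6% of all features were lower and 15% higher. Asl changed by -1.29 ± 0.18 and Cyp2f2 by -3.21 ± 0.72 there. In MYC tumors 7 of 7 were lower than in the transgene-negative livers and none higher, beside 10.3% lower and 10.2% higher of all features, with Hal at -3.05 ± 0.72 and Arg1 at -1.7 ± 0.37. In LT tumors 1 of 7, Cyp2f2, was lower and none higher, beside 7.73% and 8.78% of all features. That Cyp2f2 change of -2.6 ± 0.87 (adjusted p = 0.0384) was lost with the replicate number as a block (-2.54, adjusted p = 0.058), with a term for high Xist (-2.46, adjusted p = 0.15) and without any 1 array except LT tumor 3. Asl in LT tumors was 11.06 on average, beside 11.91 in LT NTL and 11.48 in controls, and did not pass against controls (-0.42 ± 0.21, adjusted p = 0.189). The MYC and LT tumor comparisons share their 4 control arrays, and the comparisons with NTL and with controls share the tumor arrays.

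No change of these genes passed the test in non-tumorous livers. None of the 7 members passed in DEN NTL (0.197% of all features called), in LT NTL (2.41% called) or in MYC NTL (3.83% called) against their controls. At an unadjusted p under 0.05, 0, 1 and 0 members passed. The 1 was Asl in LT NTL, 0.43 ± 0.19 higher (adjusted p = 0.259). Pck1 was 0.37 ± 0.25 lower in DEN NTL, with a 95% interval of -0.88 to 0.14 (adjusted p = 0.687). Intervals for Hal, which reached from -1.62 to 1.35 in LT NTL and from -1.8 to 1.58 in MYC NTL, were wide. The fit shares 1 estimate of the spread over all groups, the uneven tumors included. With only the 2 groups in the limma fit, 2, 1 and 1 members had an unadjusted p under 0.05 in DEN, LT and MYC NTL. Otc and Pck1 were lower in every DEN NTL array than in every control array (Pck1 12.53 to 12.9 beside 12.97 to 13.18). Neither passed in the limma fit over all arrays (adjusted p = 0.822 and 0.687). Cps1, Cyp2f2 and Pck1 were higher in every MYC NTL array than in every control, and did not pass in that limma fit (adjusted p = 0.808, 0.968 and 0.621). The other members overlapped. The share of all features without overlap was not counted, so no shift in NTL is read from these ranges.

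No member's tumor change was shown to differ between models. The difference of the tumor-to-NTL changes passed for 0 of 7 members between DEN and MYC (15.1% of all features called), 0 of 7 between DEN and LT (13.9% called) and 0 of 7 between LT and MYC (12.4% called). At an unadjusted p under 0.05 the counts were 0, 0 and 1. The 1 was Pck1, whose change was 0.94 ± 0.4 less negative in LT than in MYC tumors, with an interval of 0.11 to 1.77 (adjusted p = 0.126). For Hal the difference between DEN and MYC was 1.42 ± 1.04 with an interval of -0.72 to 3.56, so a sizeable difference in either direction was not detectable here.

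The unevenness among tumors was shared by several members and ran against the pericentral genes of glutamine synthesis and ammonia uptake. These genes were looked at array by array after their values were seen, and the differences are described without a test. Glul, glutamine synthetase, read 12.71 and 12.31 in DEN tumors 3 and 5, the pair with low Hal, beside 11.97 to 12.29 in DEN NTL. In DEN tumors 1, 2 and 4, where Hal was 10.57, 11.97 and 11.06, Glul was 10.76, 9.21 and 10.49. Among MYC tumors, Glul was 13.49, 13.43, 13.45 and 13.52 in tumors 1, 2, 4 and 5 and 9.41 in tumor 3, which had the highest level of all 7 members in the group. LT tumors 1 and 2 read 13.35 and 13.19 for Glul, and LT tumor 3, with members near their NTL level, read 12.35 beside 12.26 to 12.46 in LT NTL.

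Other pericentral genes followed Glul. Oat, which passes the nitrogen of ornithine towards glutamate, differed from the NTL mean by -2.83, -1.99 and -3.11 in DEN tumors 1, 2 and 4 and by 0.34 and -0.05 in DEN tumors 3 and 5. Slc1a2, a glutamate importer, differed by -4.09 in MYC tumor 3 and by 1.06 to 1.79 in the other MYC tumors. Lgr5, a Wnt target, differed by 2.74 and 3.01 in DEN tumors 3 and 5 and by -0.88, -1.66 and -0.09 in DEN tumors 1, 2 and 4. Over all 19 pericentral genes of the list, the median difference was 0.8 and 0.38 in DEN tumors 3 and 5 and -1.17, -1.99 and -1.2 in DEN tumors 1, 2 and 4. It was 0.95 to 1.07 in MYC tumors 1, 2, 4 and 5, -1.92 in MYC tumor 3, and 0.76, 0.95 and 0.05 in LT tumors 1 to 3. Since DEN tumors 3 and 5 share an identifier stem, as do DEN tumors 1 and 4 and LT tumors 1 and 2, these tumors may not be independent.

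**Figure D3:**
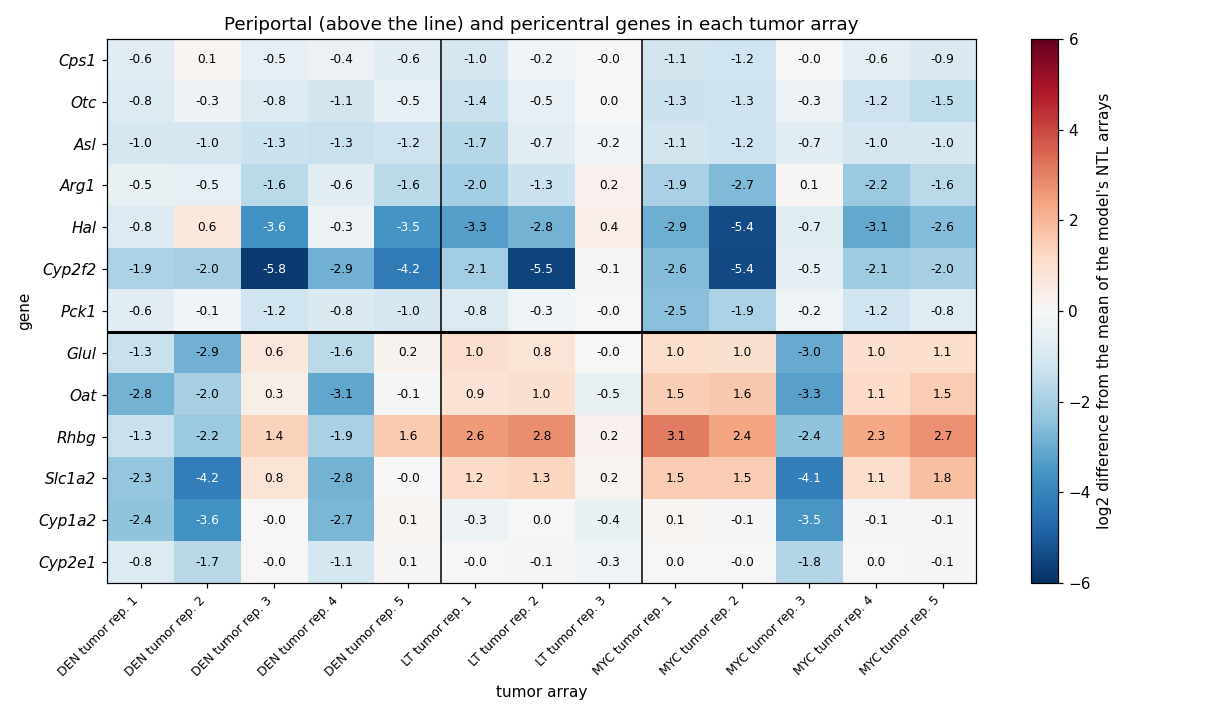
Log2 difference of each tumor array (columns) from the mean of its model's NTL arrays for the 7 members (above the line) and 6 pericentral genes (below it); blue is lower, red higher, and each cell prints its value. DEN tumors 3 and 5, LT tumors 1 and 2 and MYC tumors 1, 2, 4 and 5 combine low Hal and Arg1 with Glul above the NTL mean, while DEN tumors 1, 2 and 4 and MYC tumor 3 have low Glul, Oat and Slc1a2.

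Asl and Otc followed this order less closely than Hal and Arg1. Asl differed from the NTL mean by -1.02, -0.99 and -1.34 in DEN tumors 1, 2 and 4 and by -1.29 and -1.25 in DEN tumors 3 and 5, although Hal ran from 7.72 to 11.97 in the same tumors. Otc was lowest in DEN tumor 4 (-1.12). The number of members more than 1 log2 unit below the NTL mean was 2, 1, 5, 3 and 5 in DEN tumors 1 to 5, 6, 3 and 0 in LT tumors 1 to 3, and 7, 7, 0, 6 and 5 in MYC tumors 1 to 5. Hnf4a, a regulator of hepatocyte genes, stayed within -0.35 and 0.26 of the NTL mean in all 13 tumors and did not pass the test in any model. Mki67 was raised in every tumor, by 0.83 to 4.39, including MYC tumor 3 with the highest value.

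**Figure D4:**
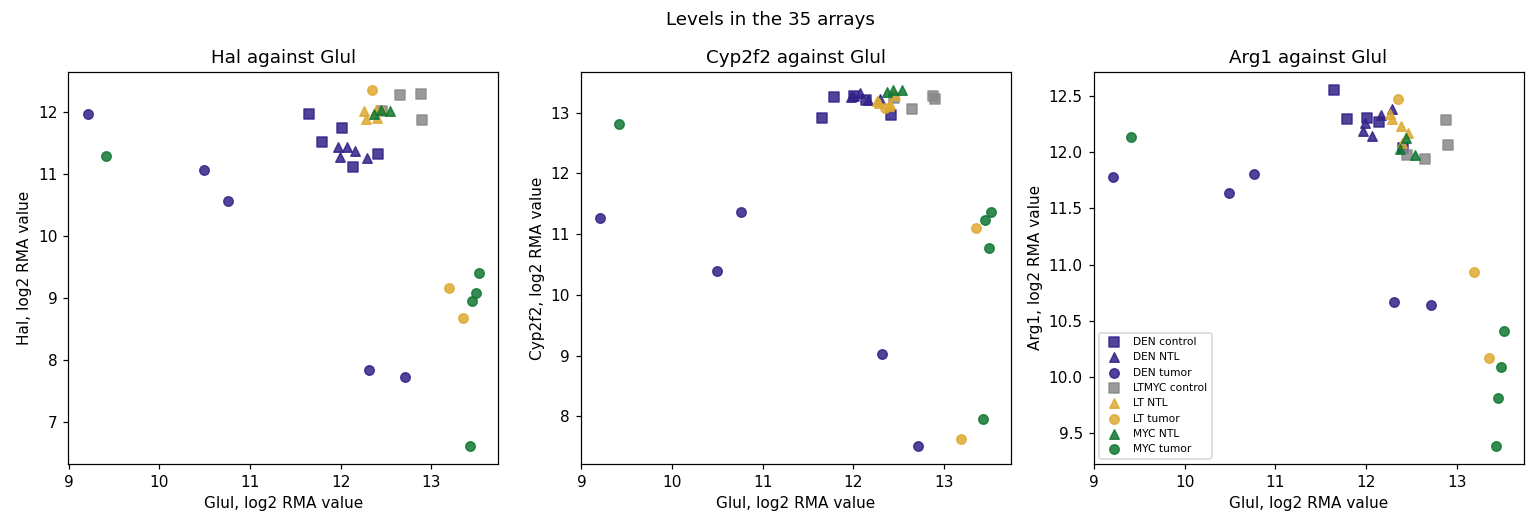
Log2 RMA value of Hal, Cyp2f2 and Arg1 (vertical axes) against that of Glul (horizontal axis) in the 35 arrays; squares are controls, triangles NTL, circles tumors, and colours mark the model. Control and NTL arrays form 1 compact cloud at high values of both, where LT tumor 3 also lies; the other tumors lie either at low Hal and Arg1 with a Glul of 12.31 to 13.52 or at low Glul, 9.21 to 10.76.

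Across the 35 arrays the 7 members varied together. Over the 21 pairs, Pearson's r ran from 0.65 (Asl and Pck1) to 0.91 (Arg1 and Hal). After the group means were taken away, it ran from 0.27 (Asl and Cyp2f2) to 0.89 (Arg1 and Hal). By r over the same arrays, Arg1 was closest to Uroc1, urocanase, the step after Hal (0.979), then Aspg, an asparaginase (0.948), and Sfxn1, a mitochondrial serine carrier (0.947). Hal was closest to Aspg (0.932), Sfxn1 (0.93) and Cd55, a complement regulator (0.927). Asl was closest to Aass, of lysine breakdown (0.933), Aspa, aspartoacylase (0.932), and Homer2 (0.932). Cps1 was closest to Otc (0.881), Hal (0.854) and Ass1/Gm5424 (0.85), and Otc to Clcn2, a chloride channel (0.893), Sdhb, of the respiratory chain (0.884), and Cps1 (0.881). Cyp2f2 was closest to Cryl1 (0.945), Hamp, the iron hormone hepcidin (0.897), and Cd55 (0.887), and Pck1 to Slc27a2, a fatty acid transporter (0.866), Arg1 (0.856) and Ccdc171 (0.85). These values are descriptive: the points share groups and arrays.

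The enzymes that follow Hal in histidine breakdown fell with it in MYC tumors. Uroc1 changed by -1.84 ± 0.46 (adjusted p = 0.00444), Amdhd1 by -1.7 ± 0.42 (adjusted p = 0.00416) and Ftcd, which hands the last carbon to folate, by -1.07 ± 0.34 (adjusted p = 0.0251). In LT tumors Uroc1 and Ftcd fell by 1.39 ± 0.46 and 1.42 ± 0.34, while Amdhd1 changed by -0.71 ± 0.42 and did not pass (adjusted p = 0.261). In DEN tumors none of the 3 passed, and Uroc1 read 10.43, 10.8, 9.28, 10.36 and 9.53 in tumors 1 to 5 beside 10.64 to 10.91 in NTL. Its low pair, tumors 3 and 5, was the low pair of Hal and Arg1.

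Amino acid breakdown was lower as a broad group. Of 43 measured genes on that list, 30 fell and none rose in DEN tumors, 23 fell and 1 rose in LT tumors, and 16 fell and 1 rose in MYC tumors, with median changes of -0.7, -0.5 and -0.43. Tumor counts against NTL for this list and for the lists and markers below stand beside the shares of all features. Those were 16.7% lower and 15.6% higher in DEN, 9.73% and 10.7% in LT, and 10.3% and 11.5% in MYC tumors. Since only the largest changes are named, a gene named for 1 model may have been called in others too. The largest falls in DEN tumors were Csad, of taurine synthesis (-2.94 ± 0.25), Prodh, of proline breakdown (-2.33 ± 0.35), and Gnmt, which spends methyl groups on glycine (-1.58 ± 0.21). In LT tumors Csad was the gene that rose (1.53 ± 0.29), while Prodh2 fell (-1.27 ± 0.31). In MYC tumors Amt, of glycine cleavage, rose by 0.48 ± 0.16, a call lost with centred arrays (0.4, adjusted p = 0.0873). The list's median lay below NTL in all 13 tumor arrays, between -0.07 in LT tumor 3 and -0.97 in LT tumor 1. The LT count of 24 called genes was 0 when only LT tumors and LT NTL entered the limma fit, with 26 at an unadjusted p under 0.05.

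Genes that feed the urea cycle changed in part. Of 14 measured genes for ammonia and its carriers, 4 fell in DEN tumors, 5 in LT tumors and 2 in MYC tumors, and 0, 0 and 2 rose. The MYC counts were near the shares of all features, 10.3% lower and 11.5% higher. With only the 2 groups in the fit, 2 genes passed in LT and 2 in MYC tumors, and array weights gave 7 in MYC tumors. In DEN tumors the mitochondrial ornithine carrier Slc25a15 fell by 1 ± 0.14, the aspartate and glutamate carrier Slc25a13 by 0.92 ± 0.1 and the glutamate carrier Slc25a22 by 0.78 ± 0.22 log2 units. In LT tumors Gpt2, an alanine transaminase, fell (-0.77 ± 0.16), as did Slc25a13 (-0.55 ± 0.12). Nags, which makes the activator that Cps1 needs, fell in LT tumors (-0.51 ± 0.12) and rose in MYC tumors (0.48 ± 0.12). The amino acid carriers Slc7a2 and Slc38a3 fell in MYC tumors, by 0.72 ± 0.25 and 0.5 ± 0.12.

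Gluconeogenic genes other than Pck1 fell in DEN and MYC tumors: 7 and 6 of 10, with 1 of 10 in LT tumors (0 with only the 2 groups in the fit, 2 at an unadjusted p under 0.05) and none higher in any. Slc37a4, which brings glucose 6-phosphate to its phosphatase, fell in all 3, by 0.95 ± 0.17, 1.06 ± 0.2 and 0.81 ± 0.2 in DEN, LT and MYC tumors. G6pc, the phosphatase itself, fell in DEN tumors (-1.01 ± 0.24), with Gpd1 (-0.98 ± 0.15). In MYC tumors Foxo1, a transcription factor of fasting, and Fbp1 fell (-0.72 ± 0.18 and -0.5 ± 0.13).

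Other periportal genes did not all go the way of the members. Of 15, 6 fell and 2 rose in DEN tumors, 2 fell and 1 rose in LT tumors (0 in all with only the 2 groups in the fit, 5 at an unadjusted p under 0.05), and 6 fell and 1 rose in MYC tumors. Sult5a1, a sulfotransferase, fell in all 3 models (-3.7 ± 0.56, -1.99 ± 0.64 and -3.29 ± 0.64). Etnppl, a phospholyase of phospholipid metabolism, fell by 4.11 ± 0.51 in DEN and 2.38 ± 0.59 in MYC tumors, Mfsd2a, a lipid transporter, by 3.67 ± 0.48 in DEN tumors, and Igfals, which carries IGF in plasma, by 1.37 ± 0.27 in LT tumors. Igfals was also called lower in DEN and MYC tumors (-2.46 and -1.23). Cdh1, E-cadherin, rose in DEN tumors (2.76 ± 0.61) and fell in MYC tumors (-2.58 ± 0.7). Apoa4, an apolipoprotein, rose in LT and MYC tumors (1.31 ± 0.31 and 1.79 ± 0.31).

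Few pericentral genes passed the test over whole groups. Of 19 genes, 5 fell in DEN tumors, among them Rgn (-1.91 ± 0.47), Cyp7a1, of bile acid synthesis (-1.87 ± 0.5), and Cyp1a2 (-1.74 ± 0.54). Slc13a3, a dicarboxylate carrier, was the 1 gene that passed in LT tumors (2.38 ± 0.81), and Sp5, a Wnt target, the 1 in MYC tumors (0.84 ± 0.25), both higher. The DEN count of 5 was 2 with only the 2 groups in the fit. The LT count was 0 with averaged stems, array weights or the Xist term (1, 4 and 3 at an unadjusted p under 0.05 in limma) and without LT tumor 1, LT tumor 2 or NTL 2, 3 or 5 (1 to 4). The MYC count was 7 with array weights, and 0 with dim genes filtered out, with only the 2 groups (2 in each at an unadjusted p under 0.05) and without MYC tumor 2 or NTL 2 or 3 (1 to 3). Glul itself did not pass in any model, with changes of -1 ± 0.55, 0.6 ± 0.63 and 0.21 ± 0.63 (adjusted p = 0.17, 0.555 and 0.855).

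**Figure D5:**
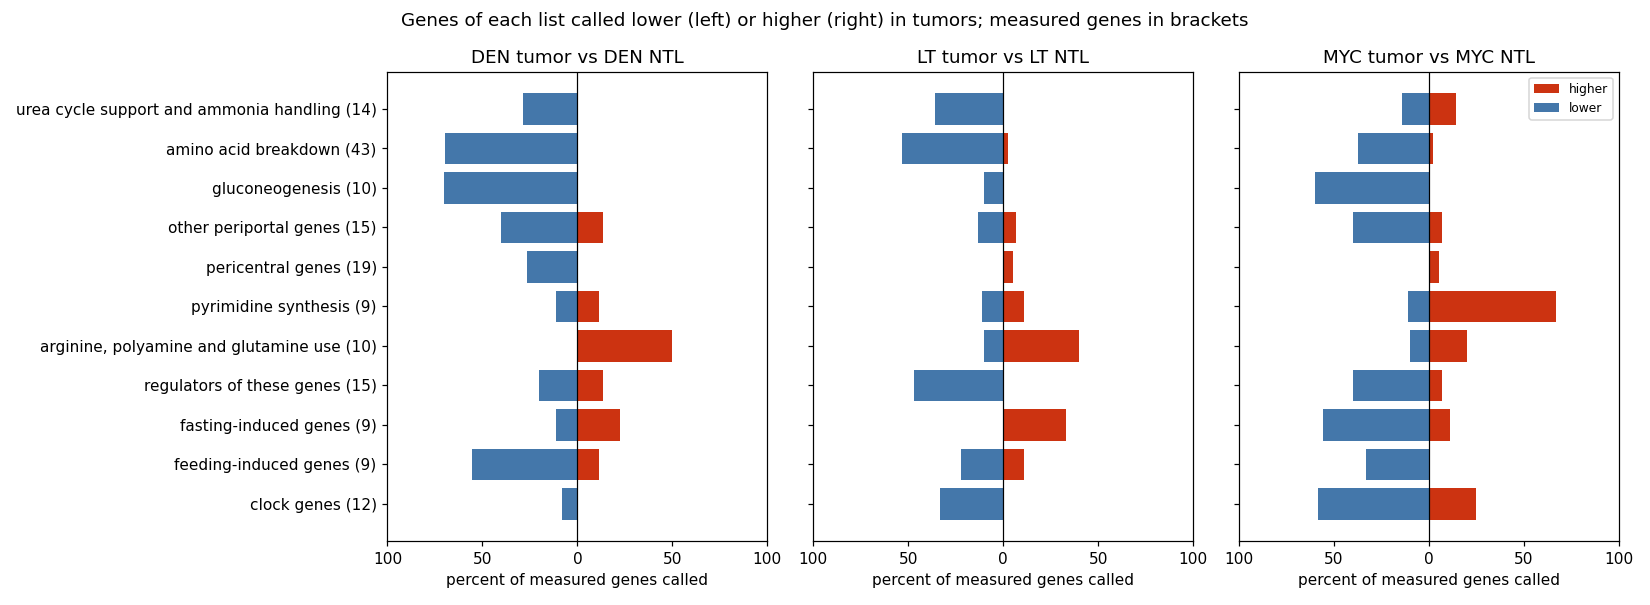
Percent of the measured genes of each list (rows, number measured in brackets) that were called lower (blue, left) or higher (red, right) in tumors against NTL, for the DEN, LT and MYC models; the axis counts percent outwards from 0. In DEN tumors 30 of 43 amino acid breakdown genes and 7 of 10 gluconeogenic genes were lower, in LT tumors 23 of 43 and 1 of 10, and in MYC tumors 6 of 9 pyrimidine synthesis genes were higher.

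Genes of pyrimidine synthesis and of arginine, polyamine and glutamine use moved the other way in part, and nitrogen flow was not measured. Cad, on the pyrimidine list, did not pass in DEN, LT or MYC tumors (log2 changes of 0.16, -0.09 and 0.37). Of 9 measured pyrimidine synthesis genes, 6 rose and 1 fell in MYC tumors, with Dctd at 2.4 ± 0.26, Rrm2, a subunit of ribonucleotide reductase, at 1.7 ± 0.3 and Ctps, which spends glutamine on CTP, at 1.02 ± 0.28, while Uck2 fell (-0.74 ± 0.2). In DEN and LT tumors 1 rose and 1 fell (4 passed in DEN tumors with centred arrays, and 1 in LT tumors with array weights): Dhodh, of the pyrimidine ring, was lower in both (-0.36 ± 0.09 and -0.53 ± 0.1). Rrm2 rose in DEN tumors (0.94 ± 0.26) and Dctd in LT tumors (0.78 ± 0.26). Of 10 genes of arginine, polyamine and glutamine use, 5 rose in DEN tumors, 4 in LT tumors and 2 in MYC tumors, and 0, 1 and 1 fell. The 5 LT calls were 2 with array weights or only the 2 groups. Asns, asparagine synthetase, rose by 3.83 ± 0.54 and the amino acid carrier Slc7a5 by 1.26 ± 0.28 in DEN tumors. Aldh18a1, of proline synthesis, rose in DEN and LT tumors (1.69 ± 0.28 and 1.33 ± 0.33). The glutamine carrier Slc1a5 rose in LT tumors (1.03 ± 0.35) and also in DEN tumors (1.25), and the cystine carrier Slc7a11 in LT and MYC tumors (1.54 ± 0.52 and 1.94 ± 0.52). Srm, spermidine synthase, fell in LT tumors (-0.71 ± 0.2), and in MYC tumors Sat1, which breaks polyamines down, rose (0.68 ± 0.15) and Azin1, which protects ornithine decarboxylase, fell (-0.62 ± 0.13). Sat1 was also called higher in DEN and LT tumors (0.48 and 0.86).

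Some regulators known to act on these genes were lower in LT and MYC tumors. Of 15, 3 fell and 2 rose in DEN tumors, 7 fell in LT tumors and 6 fell and 1 rose in MYC tumors. The DEN counts were near the shares of all features, 16.7% lower and 15.6% higher. In LT and MYC tumors 9.73% and 10.3% of all features were lower. The LT count of 7 was 3 with arrays of a shared stem averaged, 2 with array weights and 3 with only the 2 groups in the fit. Cebpa, which drives urea cycle genes, fell by 0.8 ± 0.18 in MYC tumors (adjusted p = 0.00191), and Cebpb by 0.77 ± 0.26. Cebpa was also called lower in LT tumors (-0.75). Ppara, the receptor of the fasting response, fell in MYC and DEN tumors (-0.89 ± 0.15 and -0.39 ± 0.13). In DEN tumors Nr1h4, the bile acid receptor, and Creb3l3 also fell (-1.08 ± 0.14 and -0.78 ± 0.14), while Nr3c1, the glucocorticoid receptor, rose (0.38 ± 0.1). Nr1h4 was called lower in LT and MYC tumors too (-0.75 and -0.61), and Creb3l3 in MYC tumors (-0.75). In LT tumors Onecut1, Klf15, a regulator of amino acid breakdown, and Foxa1 fell (-2.13 ± 0.69, -0.81 ± 0.21 and -0.76 ± 0.24). Klf15 was also called lower in MYC tumors (-0.62). Nr0b2, a repressor induced by bile acids, rose in MYC tumors (1.21 ± 0.36).

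Genes set by feeding and by time of day moved alongside, and their part in the member changes was not tested. Of 12 clock genes, 7 fell and 3 rose in MYC tumors against MYC NTL, with Ciart at -3.85 ± 0.8, Per3 at -2.22 ± 0.53, Bhlhe41 at -2.15 ± 0.41 and Arntl at 2.61 ± 0.49. Against the transgene-negative controls 1 of the 12 clock genes fell and none rose in MYC tumors, where 10.3% of all features were lower and 10.2% higher. Clock genes also differed between MYC NTL and controls, with 5 higher and 2 lower, where 3.83% of all features were called. In LT tumors 4 fell (2 passed with array weights), led by Ciart (-2.43 ± 0.8), Cry1 (-1.6 ± 0.36) and Per2 (-1.3 ± 0.29), and in DEN tumors 1, Hlf (-1.14 ± 0.17). Hlf was also called lower in LT and MYC tumors (-1 and -1.33), and Per2 in MYC tumors (-1.56). Of 9 fasting-induced genes, 2 rose and 1 fell in DEN, 3 rose in LT (0 with only the 2 groups in the fit, 4 at an unadjusted p under 0.05), and 1 rose and 5 fell in MYC tumors. Igfbp1, which binds IGF, rose in DEN and LT tumors (2.52 ± 0.48 and 2.77 ± 0.55), with Irs2 in DEN tumors (1.16 ± 0.25) and Pdk4 and Fgf21 in LT tumors (1.82 ± 0.54 and 1.41 ± 0.39). Pdk4, which spares glucose, also rose in MYC tumors (3.44 ± 0.54), where Angptl4, Txnip and Lpin1 fell (-1.65 ± 0.41, -1.52 ± 0.4 and -1.36 ± 0.42), and Angptl4 fell in DEN tumors (-1.57 ± 0.36). Of 9 feeding-induced genes, 5, 2 and 3 fell and 1, 1 and 0 rose in DEN, LT and MYC tumors. The 3 LT calls were 5 with centred arrays and 0 with array weights or only the 2 groups (3 and 4 at an unadjusted p under 0.05), and the 3 MYC calls were 1 with the replicate block and 5 with only the 2 groups. Thrsp, of lipogenesis, fell in all 3 (-2.95 ± 0.45, -1.56 ± 0.51 and -2.07 ± 0.51) and Elovl6 in DEN and LT tumors (-0.96 ± 0.25 and -0.89 ± 0.29). Me1 fell in DEN tumors (-2.42 ± 0.29) and Pklr and Srebf1 in MYC tumors (-0.75 ± 0.26 and -0.71 ± 0.26), while Pnpla3 rose in DEN and LT tumors (1.37 ± 0.41 and 1.57 ± 0.47).

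Markers of other cells differed in the same tumors, and their part in the member changes was not tested. Of 8 stellate cell and fibroblast markers, 5 rose in LT tumors, whose array means ran from 8.09 to 10.17 beside 7.52 to 7.96 in LT NTL. Col1a1, a collagen chain, was 10.21, 8.5 and 6.61 in LT tumors 1 to 3, while 6 of the 7 members were lowest in LT tumor 1 and highest in LT tumor 3, and Cyp2f2 was lowest in LT tumor 2. In DEN tumors 2 of these markers rose and 2 fell (means 7.69 to 8.42 beside 7.66 to 7.92), and in MYC tumors 3 fell (6.59 to 7.75 beside 7.59 to 7.81). Of 9 macrophage markers, 6 fell in DEN tumors, 5 rose and 1 fell in LT tumors and 2 rose in MYC tumors. Their means were 7.52 to 8.62 beside 8.55 to 9.47, 8.37 to 9.48 beside 8.2 to 8.85, and 7.56 to 8.7 beside 8 to 8.21. Of 6 cholangiocyte markers, 4 rose in DEN tumors, 1 in LT tumors and none in MYC tumors, with means of 5.94 to 6.55 in DEN tumors beside 5.1 to 5.33 in NTL. RMA values have no true 0, so no marker can be called absent.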

How the data were processed

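Liver RNA of 35 mouse samples in 8 groups was measured on arrays. The deposited log2 values were made by the authors with RMA, per the submitters' processing notes; the RMA software's version and the set of arrays normalized jointly were not given in the sources used here. The medians of single arrays ran from 5.59 to 5.73. Precision is limited by how many arrays a group has, since arrays have no read depth.

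The platform annotation gave 1 gene symbol to 21218 of 35556 probe sets, more than 1 to 1881 and none to 12457. Each of 18820 genes was read from its brightest single-symbol probe set. The brighter of the Ass1/Gm5424 probe sets was added, which made 18821 features. The design had counted on all 10 members, of which 7 could be tested.

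All 35 arrays entered a linear model with 1 mean for each group (limma 3.58.1, R 4.3.3; moderated by eBayes), p-values were adjusted by Benjamini-Hochberg over every feature, and a gene was called at an adjusted p under 0.05. The fit was tested on simulated normal data that gave a gene the same spread in every group. The measured spread differed between groups (Hal 1.94 in DEN tumors, 0.09 in DEN NTL), so this test does not cover such genes. Changes are given ± SE.

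The members and lists were chosen with earlier results of these data known. Named by rule were all members and their isozymes, of which only Pck2 is reported here. From each list and tumor-to-NTL comparison came up to 3 called genes with the largest change in the main direction and 1 in the other, and for each member the 3 genes with the highest r. The checks were Xist, Myc, Alb and Mki67. Pericentral genes given per array and Uroc1, Amdhd1, Ftcd, Nags and Hnf4a in further comparisons, with Col1a1, were added after their values were seen.

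Pairing by replicate number was screened by asking whether the deviations from the group means correlated above 0.1 in every pair. This held for LT tumor against control (3 pairs, 0.14 to 0.23), which came from different mice, and for no other comparison. Arrays of unlike number were not set beside these pairs, so the screen can neither show nor exclude pairing. Whether a tumor and an NTL came from the same mouse was not examined. Alternatives were centring, other probe set summaries, a dim filter (10036 genes kept), fewer groups, averaged stems, a trended robust eBayes, array weights, an Xist term, the replicate block and leaving out arrays.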

Additional observations from a re-analysis of the deposited data

Results flagged for a closer look

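In 48 combinations of a member (with Ass1/Gm5424) and a group of 4 or 5 arrays, 3 held an array whose gap to its nearest neighbour was large against the range of the group (Dixon's test at 95%). Chance flags about 1 in 20, or 2.4 of 48. Otc in MYC tumor 3 read 11.77 where the other MYC tumors read 10.58 to 10.87. Cps1 in LT NTL 4 read 13.06 beside 13.21 to 13.26, and Otc in DEN NTL 1 read 11.59 beside 11.73 to 11.78. No member's change differed between models by the test of the difference.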

How the results depend on the processing

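Over 39 member changes and 698 alternative fits, 625 kept direction and side of the threshold, 58 lost a call, 14 gained one and 1 turned sign: Ass1/Gm5424 in LT tumors against NTL, -0.3 to 0.04 with 1 array left out, and above 0 without LT tumor 1. The count of members called against NTL was 5 in DEN tumors, 3 with arrays of a shared stem averaged, and 3 to 7 with 1 array left out. In LT tumors it was 3, and 6 with centred arrays, 1 with averaged stems, 0 with only the 2 groups in the fit (limma; 5 at an unadjusted p under 0.05, beside 4662 of all features), and 0 to 6 with 1 array left out. In MYC tumors it was 7, and 3 with only the 2 groups. Against controls the LT count was 1, and 3 with centred arrays, 0 with averaged stems, the Xist term, the replicate block or only the 2 groups (1, 2, 4 and 2 at an unadjusted p under 0.05, beside 4415, 4343, 5540 and 3751 of all features), and 0 to 5 with 1 array left out. The MYC count of 7 against controls was 4 with only the 2 groups. Between models, array weights gave 1 member (DEN against MYC), and leaving out arrays gave 0 to 1 for DEN against LT and for LT against MYC. The cause of these shifts was not tested, beyond fewer arrays in the fit or group. Outside LT tumors against controls, the screen above accepted no pairing by number, which does not exclude it. The block changed 1 call there, Ass1/Gm5424 in MYC tumors.

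Over all features, the LT count against NTL was 3838, and 6225 with centred arrays, 2311 with averaged stems, 2019 with array weights, 615 with only the 2 groups and 1566 without LT tumor 1. Centring moved the median of all features against NTL from -0.04 to -0.12 in DEN, from -0.03 to -0.17 in LT and from -0.03 to -0.11 in MYC tumors. It moved the share of calls that were higher from 49% to 31.1% in DEN and from 53.2% to 18% in LT tumors against controls, from 43.4% to 74% in MYC NTL against controls, and from 45.3% to 57.1% for DEN against LT. Of 284 changes called among the listed genes against NTL, centring turned 0 in sign and ended 8 calls. Against controls the LT count of 3107 was 6628, 1616, 1445, 0 and 1032 under the same settings, and 1273 with the Xist term (the 0 beside 3751 at an unadjusted p under 0.05). The MYC count of 4107 against NTL was 2728 without MYC NTL 1. Against controls the DEN NTL count of 37 was 74 with averaged stems, 297 with array weights and 183 with only the 2 groups. The LT NTL count of 454 was 2013 with array weights, 174 with the Xist term, and 160, 234, 218, 266 and 202 without control 1, control 2 and LT NTL 1, 3 and 5. The MYC NTL count of 721 was 2645 with array weights, 1537 with only the 2 groups, and 466, 454, 299, 362 and 402 without control 1, control 3 and MYC NTL 1, 2 and 3. Between models, array weights gave 4387 in place of 2841 for DEN against MYC and 1719 in place of 2618 for DEN against LT, and only the 4 groups gave 1231 in place of 2326 for LT against MYC. The number of arrays, 3 in LT tumors and in MYC NTL, limits all of these.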
